A study of Bos taurus with 6 samples.

Results

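The genes described here encode the proteins that copy chromosomal DNA: the factors that mark and license replication origins, the MCM helicase and its activators, the replicative polymerases, the sliding clamp and its loader, the single-strand binding protein, and ribonucleotide reductase. They were chosen by gene symbol alone, with a pattern that takes the families MCM, ORC, GINS, RFC, POLA, POLD, POLE, PRIM, RPA and RRM together with PCNA, CDC6, CDC7, CDC45, CDT1, GMNN and DBF4. The pattern found 51 of the 47249 genes of the table, and each symbol occurred once. The libraries came from the testes of untreated Wandong cattle, a local Chinese breed, namely 3 immature calves aged 3 months and 3 andrologically mature bulls aged 3 years. Slices of whole testis were taken at slaughter, and total RNA freed of ribosomal RNA was sequenced, with 1 library per animal. Levels are FPKM values, which are fragments scaled to the length of the transcript and to the size of the library, so that levels of different genes can be set side by side. The question is how these genes differ between a testis before puberty and a testis in full sperm production.

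Replication starts when the origin recognition complex marks a site on the chromosome and CDC6 and CDT1 load the ring of MCM2 to MCM7 around the DNA, while geminin holds CDT1 back. The kinase CDC7 with its partner DBF4 then lets CDC45 and GINS join the ring to form the working helicase, behind which primase and the polymerases alpha, delta and epsilon make the new strands on the clamp PCNA. In the testis, spermatogonia replicate before each mitotic division and preleptotene spermatocytes replicate a last time before meiosis, whereas spermatids no longer replicate. In bulk RNA, fewer cells of a type and less RNA per cell cannot be told apart.

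The library labelled calf 3 stood apart, and its values went against its label. Its marker genes of Sertoli cells, the nursing cells of the tubule, summed to 439 FPKM against 2838 in calf 1 and 2713 in calf 2, with all 9 below both and with FSHR, GATA4 and WT1 at 0. Leydig cell markers summed to 0.502 FPKM against 1406 and 1141, with all 8 entries lower and with CYP11A1 and the 3 entries of CYP17A1 at 0. Oligodendrocyte markers summed to 13017 FPKM in calf 3 and to 28.6 and 29.4 in the other two calves, and to between 19.7 and 23.8 in bulls. Markers of astrocytes reached 1568 FPKM in calf 3 and at most 6.34 elsewhere, and those of neurons 816 FPKM and at most 16.2. All 16 genes of these 3 brain lists were highest in calf 3. Their part in the results was not tested, and the calls are therefore given with and without calf 3. Among the replication genes, 48 of 51 were lower in calf 3 than in calf 1 and calf 2, 42 were lowest there among all libraries, and 34 were at or below 0.5 of the mean of the other two. Calf 1 and calf 2 lay within 1.5-fold of each other for 48 of the 51 genes, and the coefficient of variation among bulls was under 20% for 46.

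All 51 genes reached 1 FPKM in 3 libraries or more and entered the test with 18115 genes in total. With all libraries, 16 of the 51 (31.4%) were called higher in bulls, at an adjusted p below 0.05 and at least a 2-fold difference (limma on log2(FPKM + 1), Benjamini-Hochberg adjustment over all genes tested), against 35.7% of all genes. None of the 51 was called lower, against 9.61% of all genes, and at an unadjusted p below 0.05 there were 18 higher and 3 lower, none of the 3 reaching 2-fold. For these unadjusted counts no share over all genes is given. Without calf 3, 13 were called higher (25.5%, against 37.9% of all genes) and ORC2 was called lower (1.96%, against 13.6%). The same 13 were called higher in both fits, while ORC2, ORC6, DBF4B and CDC45 changed their call. In both fits the share called higher was thus near or under that of all genes, and the share called lower was under it. The number called higher therefore does not set the replication genes apart in these fits. The background depends on the filter: with 1 FPKM required in all libraries, 11 of 41 replication genes were called higher and 0 lower. Of the 10901 genes then tested, 2220 were higher and 1138 lower, and the medians were 0.39 for replication genes and 0.026 for all. The median log2 fold change of the 51 was 0.71 against 0.43 over all genes tested, and 0.28 against 0.43 without calf 3.

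Beneath that median, the genes diverged. Without calf 3, 29 of the 51 had a positive and 22 a negative fold change, from -1.82 for ORC2 to 2.81 for ORC4. Another 9 genes passed the adjusted p with a positive difference of under 2-fold, 13 passed it with a negative difference of under 2-fold, and 15 did not pass. No share over all genes is given for these counts or for the signs. The median over all genes tested was itself above 0, at 0.43 without calf 3, and 21 of the 51 lay above that median. The values of bulls lay wholly above those of calves for 24 genes (47.1%, against 46.1% of all genes) and wholly below for 3 (5.88%, against 21.3%). Without calf 3, these were again 24 (47.1%, against 53.5%) and 14 (27.5%, against 30.9%).

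**Figure D1:**
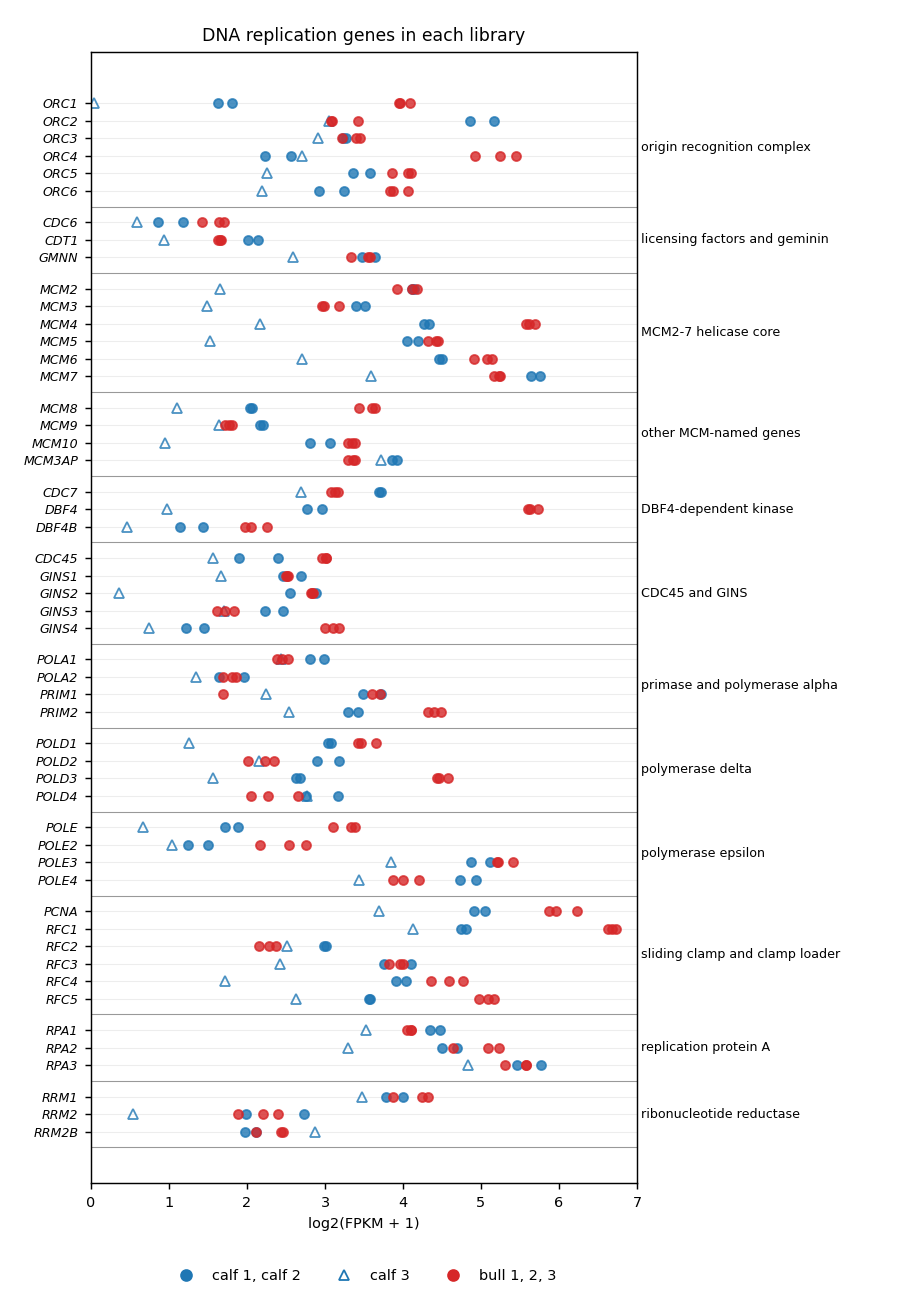
Level of each of the 51 replication genes in each library as log2(FPKM + 1) on the horizontal axis, grouped by role, with filled blue circles for calf 1 and calf 2, open triangles for calf 3 and red circles for the 3 bulls. Bulls stand to the right of calf 1 and calf 2 for ORC1, ORC4, DBF4, GINS4, POLD3 and RFC1 and to the left for ORC2, and calf 3 is the lowest point for 42 genes.

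The calls depended on how the libraries were scaled. Deposited FPKM values gave a median log2 fold change of 0.43 over all genes, and quantile normalization moved this median to -0.26. After that normalization, 9 replication genes were called higher (against 21.1% of all genes) and 7 lower (against 25.1%), and without calf 3 the counts were 6 (against 22.4%) and 12 (against 29.1%). Scaling to a common sum over genes with a symbol instead moved the median over all genes to 0.67. It gave 22 replication genes higher and 0 lower, against 7073 and 952 of the 18115 genes tested. The 6 genes called higher with deposited values, median-of-ratios scaling and quantile normalization, each with and without calf 3, were ORC1, ORC4, DBF4, GINS4, POLD3 and RFC1. ORC1 and ORC4 belong to the origin recognition complex and the others to a complex each, and every one of these complexes also held subunits that were not called with deposited values in either fit. These unequal subunits are described next by role, and the shares within a library, which a single scaling factor per library leaves as they are, are given beside them. Quantile normalization applies no such single factor and can move these shares.

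The origin recognition complex held the largest contrast. ORC4, one of its ATP-binding subunits (ENSBTAG00000015291, chromosome 2, 47961936 to 48295414), stood at 4.92, 3.69 and 5.53 FPKM in the 3 calves and at 42.8, 36.9 and 29.4 FPKM in the 3 bulls, in the order of their numbers. Every bull was more than 5-fold above every calf. Its log2 fold change was 2.71 ± 0.21 (SE, adjusted p = 0.000135) and 2.81 without calf 3, and it was described after its values were seen. ORC1, the subunit whose level in many cells rises and falls with the cell cycle (ENSBTAG00000002719, chromosome 3, 93962136 to 93993700), had 2.11, 2.51 and 0.0262 FPKM in calves and 14.5, 16.0 and 14.5 FPKM in bulls. The groups did not overlap, and calf 3 was close to 0. The log2 fold change of ORC1 was 2.84 ± 0.49 (adjusted p = 0.00343) and 2.27 ± 0.13 (adjusted p = 2.19e-05) without calf 3.

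ORC2 moved the other way (ENSBTAG00000031473, chromosome 2, 89551970 to 89589809). Calf 1 and calf 2 had 28.1 and 34.8 FPKM, calf 3 had 7.30 FPKM, and the bulls had 7.43, 9.71 and 7.54 FPKM. Calf 3 thus lay at the level of the bulls and far from the other two calves. With all libraries the log2 fold change was -1.16 ± 0.56 (adjusted p = 0.128), which was not called, and without calf 3 it was -1.82 ± 0.16 (adjusted p = 0.000134), a level 3.82-fold higher in calf 1 and calf 2 than in bulls. ORC6 had 8.48, 6.59 and 3.56 FPKM in calves and 13.7, 15.7 and 13.2 FPKM in bulls. Its log2 fold change of 1.14 ± 0.30 (adjusted p = 0.0185) was called, but it was 0.84 ± 0.15 (adjusted p = 0.00263) without calf 3, under 2-fold, and leaving out bull 1, bull 2 or bull 3 gave adjusted p of 0.0607, 0.0721 and 0.056. ORC3 and ORC5 had log2 fold changes of 0.22 and 0.95 with all libraries and of 0.10 and 0.54 without calf 3, and neither was called.

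Within a library, ORC2 made up 44.7% and 53.1% of the summed FPKM of ORC1 to ORC6 in calf 1 and calf 2 and 27.4% in calf 3, against 7.26%, 9.29% and 8.60% in bulls. ORC4 made up 7.81%, 5.63% and 20.7% in calves and 41.8%, 35.3% and 33.6% in bulls. The most abundant subunit of the complex was therefore ORC2 in each calf and ORC4 in each bull. For either share the exact two-sided permutation test gave p = 0.1 with and without calf 3, which is the smallest p that 3 animals against 3 or against 2 can give. Of 40 such shares in 10 sets of subunits, 27 reached that p with all libraries and 31 without calf 3, and none could fall below 0.05.

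**Figure D2:**
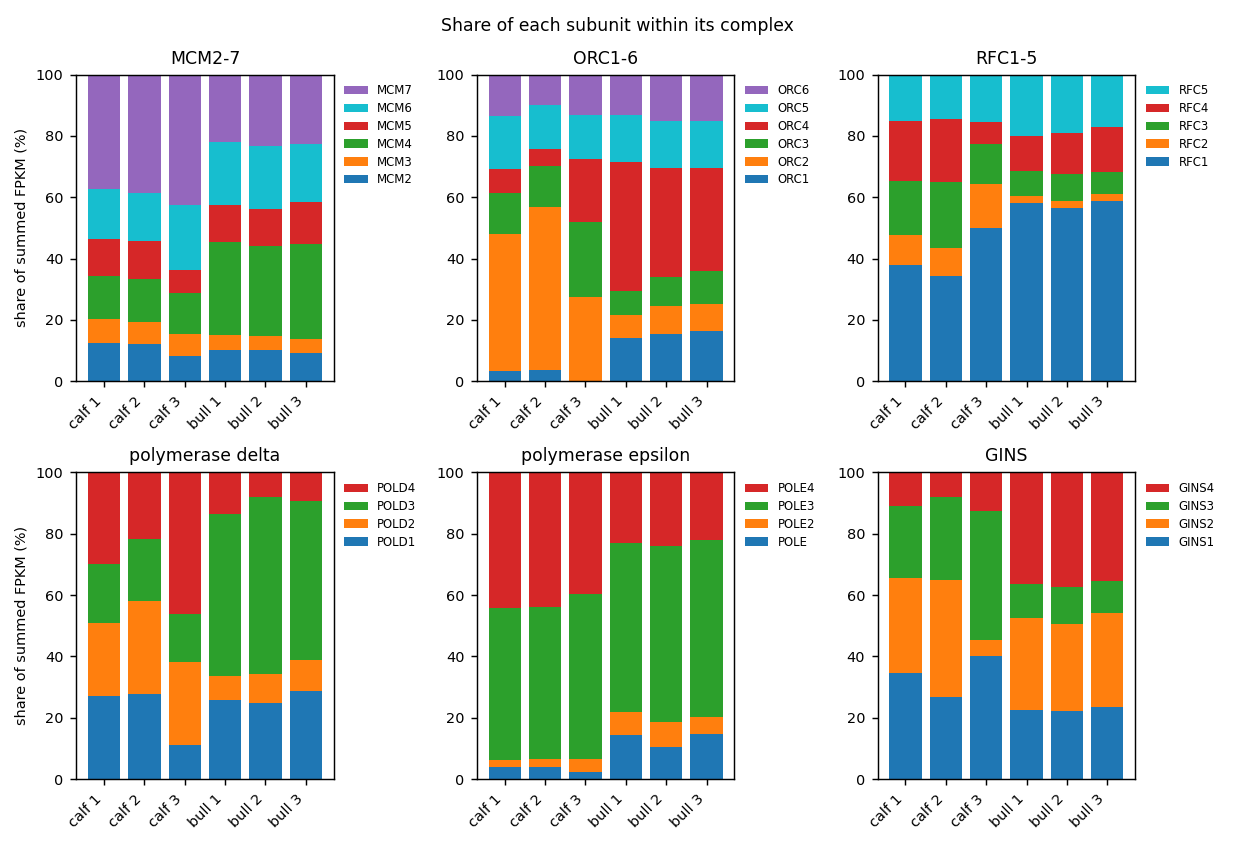
Share of each subunit in the summed FPKM of its complex (vertical axis, %) in each of the 6 libraries, 1 stacked bar per library, for MCM2-7, ORC1-6, RFC1-5, polymerase delta, polymerase epsilon and GINS. ORC2 is the broadest band of its complex in calf 1, calf 2 and calf 3 and ORC4 in the bulls, MCM7 gives way to MCM4 as the most abundant MCM subunit, and POLD3 covers 51.8% to 57.9% of polymerase delta in bulls. The bands show gene values, which include transcripts named as antisense, and these are the larger part of GINS1 in bulls.

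The factors that load the helicase, and geminin, were not called in either fit. CDC6, an ATPase of the loading step, had 1.27, 0.816 and 0.510 FPKM in calves and 2.27, 2.11 and 1.68 FPKM in bulls. The transcript CDC6-202, which lies outside the overlapping gene WIPF2, made up 88.7%, 79.4% and 5.66% of these values in calves. In bulls it made up 56.6%, 96.1% and 93.0%. In calf 3, 88.3% came from a transcript assembled from the reads that reaches into WIPF2. Bulls were above all calves, and the log2 fold change of 0.71 ± 0.19 (adjusted p = 0.0212) was under 2-fold, as was 0.57 ± 0.17 (adjusted p = 0.0225) without calf 3. After quantile normalization its sign turned, at -0.28. CDT1, the partner of CDC6, had 3.05, 3.41 and 0.915 FPKM in calves and 2.17, 2.08 and 2.15 FPKM in bulls. Its log2 fold change was -0.05 ± 0.34 (adjusted p = 0.909) and -0.43 ± 0.13 (adjusted p = 0.0257) without calf 3. The inhibitor geminin, GMNN, had between 9.06 and 11.0 FPKM in bulls and 11.5 and 10.2 FPKM in calf 1 and calf 2, and its log2 fold change was 0.25, or -0.07 without calf 3.

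Among the 6 subunits of the MCM2-7 ring, MCM4 alone was called. MCM4 (ENSBTAG00000017021, chromosome 14, 19551601 to 19563221) had 18.3, 19.2 and 3.50 FPKM in calves and 50.8, 46.7 and 48.2 FPKM in bulls. The bulls lay close together and more than 2-fold above calf 1 and calf 2. The log2 fold change was 2.04 ± 0.60 (adjusted p = 0.0284) and 1.33 ± 0.10 (adjusted p = 5.44e-05) without calf 3. With calf 3 kept, leaving out bull 1, bull 2 or bull 3 gave adjusted p of 0.0905, 0.0823 and 0.0859, and quantile normalization 0.119. MCM7 had 48.7, 52.9 and 11.0 FPKM in calves and 37.0, 36.7 and 34.9 FPKM in bulls, so that all bulls lay below calf 1 and calf 2 and above calf 3. Its log2 fold change was 0.23 ± 0.59 (adjusted p = 0.766) with all libraries and -0.48 ± 0.09 (adjusted p = 0.00416) without calf 3. MCM2, MCM3, MCM5 and MCM6 had log2 fold changes of 0.77, 0.24, 1.15 and 1.15 with all libraries and of -0.06, -0.41, 0.28 and 0.56 without calf 3, and none was called.

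The protein ring holds each subunit once, and its messenger RNAs were far from equal. MCM4 took 14.0%, 14.1% and 13.6% of the summed FPKM of the 6 genes in calves and 30.3%, 29.5% and 31.3% in bulls. Calf 3 was close to the other two calves in this share, although its summed level was far lower. MCM7 took 37.2%, 38.8% and 42.6% in calves and 22.1%, 23.2% and 22.7% in bulls. For both shares the groups did not overlap (exact two-sided permutation p = 0.1, the smallest possible, with and without calf 3). MCM7 was the most abundant subunit in all calves and MCM4 in all bulls.

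Of the other genes with an MCM name, MCM8 was called. MCM8, which works with MCM9 in the repair of DNA breaks rather than in the replicative ring, had 3.10, 3.17 and 1.15 FPKM in calves and 9.78, 11.1 and 11.5 FPKM in bulls. Bulls were at least 3-fold above every calf, with a log2 fold change of 1.82 ± 0.30 (adjusted p = 0.00292) and of 1.51 ± 0.13 (adjusted p = 0.000121) without calf 3. MCM9 did not follow, with -0.24 and, without calf 3, -0.42, and MCM10, which helps to activate the helicase, had 1.07 and 0.40, none of them called. MCM3AP, a gene of messenger RNA export that was taken in by its symbol, had 14.2, 13.4 and 12.2 FPKM in calves and 8.83, 9.23 and 9.47 FPKM in bulls. Its groups did not overlap, calf 3 included, and its log2 fold change of -0.49 ± 0.14 (adjusted p = 0.0285) was under 2-fold, as was -0.54 ± 0.11 (adjusted p = 0.00454) without calf 3.

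DBF4 had the largest fold change of all 51 genes with all libraries. This regulatory subunit of the CDC7 kinase (ENSBTAG00000014711, chromosome 4, 32285838 to 32315089) had 6.77, 5.84 and 0.970 FPKM in calves and 47.8, 52.0 and 48.4 FPKM in bulls. The bulls were 7.83-fold above the mean of calf 1 and calf 2. The log2 fold change was 3.42 ± 0.53 (adjusted p = 0.0023) and 2.79 ± 0.11 (adjusted p = 5.01e-06) without calf 3, and 2.15 without calf 3 after quantile normalization. The kinase itself went the other way in level: CDC7 had 12.2, 11.9 and 5.49 FPKM in calves and 7.44, 7.99 and 7.71 FPKM in bulls. Its log2 fold change was -0.25 ± 0.31 (adjusted p = 0.527) and, in the fit lacking calf 3, -0.58 ± 0.11 (adjusted p = 0.00367), both less than 2-fold. In level per length, CDC7 exceeded DBF4 in every calf and DBF4 exceeded CDC7 in every bull.

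The alternative regulator DBF4B had 1.20, 1.71 and 0.378 FPKM in calves and 3.79, 3.13 and 2.92 FPKM in bulls. Bulls were above all calves, with a log2 fold change of 1.08 ± 0.28 (adjusted p = 0.0177) that fell under 2-fold without calf 3, at 0.80 ± 0.17 (adjusted p = 0.00567). Its adjusted p was 0.0633 without bull 1 and 0.0534 without bull 2. DBF4 made up 85.0%, 77.3% and 72.0% of the sum of both regulators in calves and 92.6%, 94.3% and 94.3% in bulls (exact two-sided permutation p = 0.1, the smallest possible).

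CDC45 and GINS complete the working helicase. CDC45 had 4.25, 2.73 and 1.96 FPKM in calves and 6.81, 7.09 and 7.09 FPKM in bulls. The groups did not overlap, and the log2 fold change of 1.05 ± 0.25 (adjusted p = 0.0127) became 0.85 ± 0.18 (adjusted p = 0.00531), less than 2-fold, once calf 3 was left out. GINS4 (ENSBTAG00000017133, chromosome 27, 36454819 to 36470324) had 1.74, 1.33 and 0.673 FPKM in calves and 7.61, 8.06 and 6.98 FPKM in bulls. It was called in both fits, with 1.96 ± 0.23 (adjusted p = 0.000684) and 1.76 ± 0.15 (adjusted p = 0.000109). GINS3 had 3.71, 4.52 and 2.27 FPKM in calves and 2.30, 2.56 and 2.07 FPKM in bulls, with a log2 fold change of -0.41 ± 0.24 (adjusted p = 0.187) and of -0.63 ± 0.15 (adjusted p = 0.0103) without calf 3. GINS1 and GINS2 had 0.24 and 0.91 with all libraries and -0.07 and 0.12 without calf 3, neither of them called. GINS4 thus moved from 11.0%, 7.94% and 12.5% of the summed FPKM of the 4 GINS genes in calves to 36.6%, 37.5% and 35.3% in bulls. This sum holds the whole GINS1 value, which includes transcripts named as antisense. In bulls GINS1 had 4.69, 4.74 and 4.64 FPKM, of which the sense transcripts made 1.95, 1.37 and 1.99 FPKM.

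The priming enzyme joins polymerase alpha and primase. PRIM2, the large primase subunit (ENSBTAG00000007937, chromosome 23, 2560548 to 2894440), had 8.78, 9.70 and 4.79 FPKM in calves and 21.4, 20.1 and 19.0 FPKM in bulls. Bulls were 2.18-fold above the mean of calf 1 and calf 2, and PRIM2 was called with 1.32 ± 0.26 (adjusted p = 0.00647) and, without calf 3, 1.05 ± 0.11 (adjusted p = 0.000288), but not after quantile normalization (0.74, adjusted p = 0.0571). PRIM1, the catalytic primase subunit, had 12.2, 10.2 and 3.74 FPKM in calves and 12.1, 11.1 and 2.23 FPKM in bulls. Bull 3 was at 0.192 of the mean of bull 1 and bull 2, the widest gap of any replication gene in that library, where the next lowest ratio was 0.656, for POLE2. Without bull 3, the log2 fold change of PRIM1 turned from -0.15 to 0.50, and neither was called. POLA1, the catalytic subunit of polymerase alpha, had 5.98, 6.94 and 4.40 FPKM in calves and 4.24, 4.74 and 4.45 FPKM in bulls, with a log2 fold change of -0.29 ± 0.20 (adjusted p = 0.268) and of -0.44 ± 0.14 (adjusted p = 0.0254) without calf 3. POLA2 had 0.14 and -0.01.

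In polymerase delta, which makes most of the lagging strand, POLD3 was called higher and the other subunits were not called. POLD3 (ENSBTAG00000016869, chromosome 15, 53909173 to 53953518) had 5.19, 5.43 and 1.96 FPKM in calves and 20.6, 22.8 and 21.0 FPKM in bulls, with a log2 fold change of 2.20 ± 0.33 (adjusted p = 0.00194) and of 1.83 ± 0.11 (adjusted p = 2.69e-05) without calf 3. The catalytic subunit POLD1 had 1.05 and, without calf 3, 0.45, and POLD2 had -0.54 and -0.84, none of which was called. POLD4 had 8.01, 5.77 and 5.83 FPKM in calves and 5.27, 3.16 and 3.84 FPKM in bulls, with -0.58 ± 0.23 (adjusted p = 0.0804) and -0.64 ± 0.23 (adjusted p = 0.0416). POLD3 went from 19.3%, 20.4% and 15.5% of the summed FPKM of the 4 subunits in calves to 53.0%, 57.9% and 51.8% in bulls. POLD2 went from 23.9%, 30.2% and 27.3% to 7.80%, 9.40% and 10.1%, and for neither subunit did the groups overlap (exact two-sided permutation p = 0.1, the smallest possible).

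In polymerase epsilon, which makes the leading strand, the catalytic subunit POLE had 2.30, 2.70 and 0.582 FPKM in calves and 9.44, 7.62 and 9.05 FPKM in bulls. Bulls were more than 2-fold above all calves, and POLE was called with 1.85 ± 0.36 (adjusted p = 0.00554) and with 1.47 ± 0.15 (adjusted p = 0.000239) without calf 3. POLE2 was called with 1.23 and 1.12, though not after quantile normalization (0.53, adjusted p = 0.0958). The small histone-fold subunits did not follow: POLE3 had 0.67 and 0.28. POLE4 had 25.6, 29.7 and 9.82 FPKM in calves and 15.0, 17.4 and 13.6 FPKM in bulls, with -0.34 ± 0.41 (adjusted p = 0.51) and -0.81 ± 0.14 (adjusted p = 0.00227). POLE4 made up 44.4%, 43.8% and 39.6% of the summed FPKM of the enzyme in calves and 22.9%, 24.0% and 22.0% in bulls, while POLE made up 3.99%, 3.98% and 2.34% in calves and 14.4%, 10.5% and 14.6% in bulls.

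RFC1, the large subunit of the loader that opens the PCNA ring, was the most abundant replication gene of the bulls. It (ENSBTAG00000014515, chromosome 6, 58431359 to 58492858) had 27.1, 25.8 and 16.5 FPKM in calves and 101, 97.6 and 105 FPKM in bulls, with a log2 fold change of 2.11 ± 0.22 (adjusted p = 0.000408) and of 1.90 ± 0.09 (adjusted p = 1.04e-05) without calf 3. RFC2 had 7.07, 6.91 and 4.71 FPKM in calves and 3.44, 4.19 and 3.87 FPKM in bulls. All bulls lay below all calves, yet -0.57 ± 0.21 (adjusted p = 0.0584) and -0.73 ± 0.14 (adjusted p = 0.00348) were under 2-fold. RFC5 was called in both fits, with a log2 fold change of 1.82 over all libraries and a mean of bulls 3.01-fold above that of calf 1 and calf 2. RFC3 and RFC4 had 0.50 and 1.35 with all libraries and -0.00 and 0.60 without calf 3, none of them called. RFC1 made up 37.9%, 34.2% and 50.0% of the summed FPKM of the 5 loader genes in calves and 58.3%, 56.4% and 58.8% in bulls, and RFC2 went from 9.87%, 9.19% and 14.3% to 1.98%, 2.42% and 2.17%.

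PCNA, the clamp itself and a common marker of dividing cells, had 29.1, 32.3 and 11.9 FPKM in calves and 61.2, 74.1 and 57.5 FPKM in bulls. Bulls were 2.09-fold above the mean of calf 1 and calf 2, with a log2 fold change of 1.47 ± 0.39 (adjusted p = 0.0193) and of 1.04 ± 0.14 (adjusted p = 0.00067) without calf 3. PCNA stood near the limits of the call: leaving out bull 1, bull 2 or bull 3 gave adjusted p of 0.0622, 0.074 and 0.0553, and quantile normalization gave 0.70 (adjusted p = 0.195).

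Single-strand binding and nucleotide supply held no called gene. RPA1, RPA2 and RPA3 form replication protein A, which covers the unwound strands. RPA1 had 19.4, 21.2 and 10.5 FPKM in calves and 16.1, 15.6 and 16.1 FPKM in bulls, with -0.03 ± 0.28 (adjusted p = 0.927) and -0.33 ± 0.10 (adjusted p = 0.026). RPA2 had 21.7, 24.9 and 8.78 FPKM in calves and 33.2, 36.6 and 24.0 FPKM in bulls, with 0.83 ± 0.41 (adjusted p = 0.133) and 0.39 ± 0.19 (adjusted p = 0.108), and bull 3 lay at the level of calf 2. RPA3 had 0.13 and -0.13.

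Ribonucleotide reductase makes the deoxynucleotides, with RRM1 as the large subunit, RRM2 as the small subunit of cells in S phase and RRM2B as the small subunit that p53 induces. RRM1 had 0.39 and, without calf 3, 0.26. RRM2 had 5.63, 2.98 and 0.452 FPKM in calves and 2.70, 4.27 and 3.62 FPKM in bulls, with a log2 fold change of 0.41 ± 0.56 (adjusted p = 0.563) and of -0.20 ± 0.27 (adjusted p = 0.53) without calf 3. RRM2B had 3.34, 2.92 and 6.29 FPKM in calves and 3.33, 4.50 and 4.40 FPKM in bulls, with 0.02 ± 0.29 (adjusted p = 0.966) and 0.29 ± 0.17 (adjusted p = 0.163). RRM2B was the only replication gene that was highest in calf 3. Its share of the 2 small subunits was 37.3%, 49.5% and 93.3% in calves and 55.2%, 51.3% and 54.9% in bulls, so that the groups did not overlap without calf 3 (exact two-sided permutation p = 0.1, the smallest possible) and the calves spanned the bulls with it (p = 1).

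**Figure D3:**
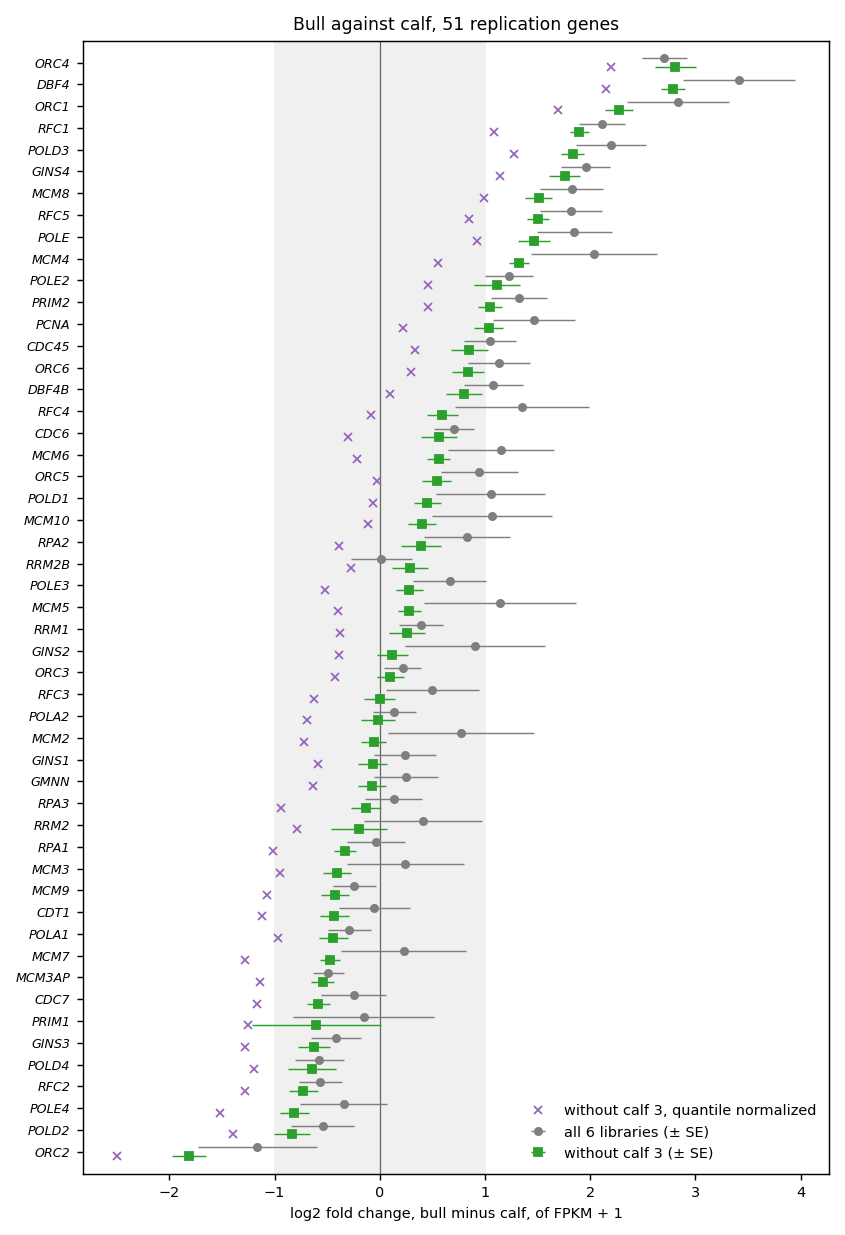
Log2 fold change of FPKM + 1, bull minus calf, for each replication gene (horizontal axis), with all 6 libraries (grey circles, bars ± SE), without calf 3 (green squares, bars ± SE) and without calf 3 after quantile normalization (purple crosses), ordered by the value without calf 3 and with the zone under 2-fold shaded. ORC4 is at 2.81 and ORC2 at -1.82 without calf 3, and quantile normalization moves every gene to the left.

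The table of transcripts shows which of these values rest on unusual transcripts. It lists 161 transcripts of the 51 genes, of which 66 passed the filter on low values, and each gene had at least 1 of them. With all libraries 19 were called higher (28.8%, against 34.8% of the 23212 transcripts tested) and 3 lower (4.55%, against 9.37%), and without calf 3 these were 17 (25.8%, against 36.1%) and 6 (9.09%, against 13.1%). For 14 genes more than 1 transcript was tested, and 2 of these genes had transcripts of opposite sign with a call. MCM7-203 was called lower, with 2.50, 3.22 and 2.69 FPKM in calves and 0.613, 0.422 and 0.299 FPKM in bulls (log2 fold change -1.40 ± 0.16, adjusted p = 0.000673), while the main transcript MCM7-201 had 0.45 and was not called. Without calf 3, where MCM7-201 had -0.41, the signs were the same. Without calf 3, MCM4-202 had 1.41 and was called higher, and MCM4-201, the minor transcript, had -0.10.

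Further transcripts are named after their values were seen. ORC4-202 carried nearly all of the ORC4 level of bulls, with 1.72, 0.971 and 2.24 FPKM in calves and 41.9, 35.5 and 27.9 FPKM in bulls. This transcript made up 35.0%, 26.3% and 40.5% of the ORC4 value in calves and 97.9%, 96.2% and 94.9% in bulls. RFC5-202 had 0.866, 1.58 and 0.385 FPKM in calves and 14.0, 11.8 and 9.34 FPKM in bulls, and RFC5-201 had 9.97, 9.33 and 4.73 FPKM and 20.3, 20.3 and 19.6 FPKM. The log2 fold changes were 2.74 and 1.28 with all libraries, both called, and 2.52 and 0.98 without calf 3, where RFC5-201 was not called. The annotated span of RFC5-202 runs into the gene KSR2. POLD4-202 was called lower, from 5.25, 3.66 and 3.28 FPKM to 0.0976, 0.287 and 0.330 FPKM (log2 fold change -2.02, adjusted p = 0.000394), which the gene value of POLD4 did not show.

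Antisense transcripts entered some gene values. The libraries were strand-specific, but whether the levels were computed by strand is not given in the sources used here. The table names 15 antisense transcripts in 8 of the genes, 10 of them at 0 in all calves, and the value of such a gene is the sum of its sense and antisense transcripts. MCM8-AS1 was listed at 0 in all calves and had 3.33, 4.50 and 4.44 FPKM in bulls. Without it, MCM8 had 3.10, 3.17 and 1.15 FPKM in calves and 6.45, 6.63 and 7.07 FPKM in bulls. Its log2 fold change then was 1.21 (adjusted p = 0.015) with all libraries and 0.90 (adjusted p = 0.000982) without calf 3, the latter under 2-fold. For GINS1, the sense transcripts alone summed to 5.36, 4.41 and 1.96 FPKM in calves and 1.95, 1.37 and 1.99 FPKM in bulls. The fold change of GINS1 then was -0.76 (adjusted p = 0.0901), and -1.09 without calf 3, which was called lower (adjusted p = 0.00163), whereas the gene value with its antisense transcripts had 0.24 and -0.07. For ORC2 the same step gave -1.35 and -2.00, with the call as before. For DBF4 it gave 3.44 and 2.82 and for PRIM2 1.30 and 1.02, again with the calls as before.

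**Figure D4:**
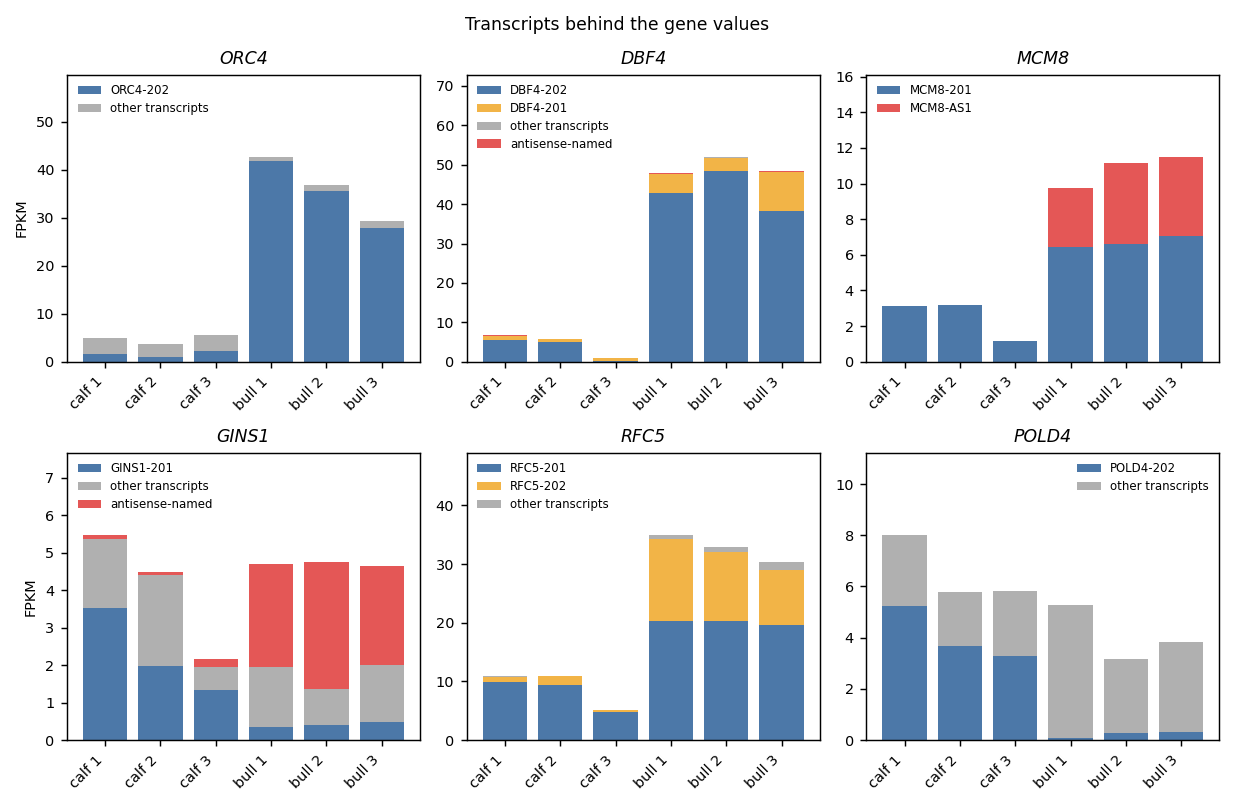
FPKM (vertical axis) of the transcripts of ORC4, DBF4, MCM8, GINS1, RFC5 and POLD4 in each library, 1 stacked bar per library, with named transcripts in blue and orange, other transcripts in grey and transcripts named as antisense in red. ORC4-202 fills nearly the whole bar in bulls, antisense transcripts are the larger part of the GINS1 bar in bulls, and POLD4-202 is at most 0.330 FPKM there.

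The gene spans of 19 of the 51 overlapped another gene of the table, so reads in shared stretches could have been counted for either. PRIM1 lies within the span of NACA, which had 247, 213 and 80.8 FPKM in calves and 165, 131 and 142 FPKM in bulls, and NACA did not show the low value of PRIM1 in bull 3. MCM8 overlaps CRLS1 through MCM8-AS1 alone, which spans 48154805 to 48193853, whereas MCM8-201 ends at 48166976. CRLS1 starts at 48186875 and had a mean of 7.33 FPKM in calves and 14.6 FPKM in bulls. The effect of this overlap on the level of MCM8-AS1 was not tested. MCM9 overlaps ASF1A, and MCM7 overlaps AP4M1 and holds the precursors of 3 microRNAs. ORC4 overlaps MBD5 over 219484 bases, as well as ACVR2A and other entries. Its transcripts assembled from the reads reach into MBD5 and ACVR2A, whereas ORC4-202 spans 48181523 to 48275918 and does not. In each calf, the largest of these assembled transcripts made up 61.5%, 58.3% and 58.7% of the ORC4 value in calf 1, calf 2 and calf 3. It was not the same transcript throughout. That of calf 1 was listed at 0 in calf 2 and calf 3, and that of calf 2 and calf 3 was listed at 0 in calf 1. The effect on the ORC4 level of calves was not tested.

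Other genes of replication and division, from lists chosen for this comparison, give the setting. Of 24 factors of the fork and of strand maturation, 9 were called higher and TOP2B lower, both with all libraries and without calf 3, and their median log2 fold change was 0.53 and -0.04. Over all genes tested, 35.7% were called higher and 9.61% lower with all libraries, and 37.9% and 13.6% without calf 3. The counts of this list and of the E2F and RB family are near those of all genes. So is the count of origin firing genes called higher without calf 3, 5 of 14, and that of nucleotide supply, 1 of 10, lies below. The histone chaperone genes ASF1B, at 3.26 and 2.76, and CHAF1B, at 2.58 and 2.51, had the largest changes, both called. Of 14 genes of origin firing and of its limits, 7 were called higher with all libraries and 5 without calf 3, among them the phosphatase gene CDC25A (2.70 and 2.09) and DTL (2.50 and 1.84), which serves the breakdown of CDT1. Of 13 genes of the E2F and RB family, which control the transcription of many replication genes, 5 and 4 were called higher, with TFDP2 (3.41 and 3.31) and E2F8 (1.97 and 1.78) foremost. E2F1 itself had 0.97 and 0.27, not called. Of 10 genes of nucleotide supply, 1 was called higher in each fit, TYMS of thymidylate synthesis (1.90 and 1.28), and SAMHD1, which breaks down deoxynucleotides, had -1.14, not called, and -1.68 without calf 3, called lower.

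Repair polymerases and meiotic relatives of replication proteins had higher medians. Among 11 repair polymerase genes, 7 were called higher in each fit, with POLB of base excision repair at 3.68 and 3.20 and MAD2L2 of translesion synthesis at 2.24 and 2.11. Among 7 meiotic relatives, 6 and 5 were called higher. SPATA22 had 4.20 and 3.38 and MEIOB, an RPA1 relative, had 3.32 and 3.20. Among 14 genes of mitosis and proliferation, 12 and 11 were called higher, with CCNB2 at 4.29 and 3.65 and BUB1 at 3.70 and 3.08. The medians were 1.43, 1.76 and 2.77 with all libraries and 1.30, 1.65 and 2.13 without calf 3, against 0.71 and 0.28 for the 51 replication genes and 0.43 in both fits for all genes tested. In both of these fits, none of the lists had a gene called lower. Quantile normalization of all libraries left 5, 4 and 9 genes called higher, against 21.1% of all genes. It gave 1 repair polymerase gene called lower, against 25.1% of all genes.

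**Figure D5:**
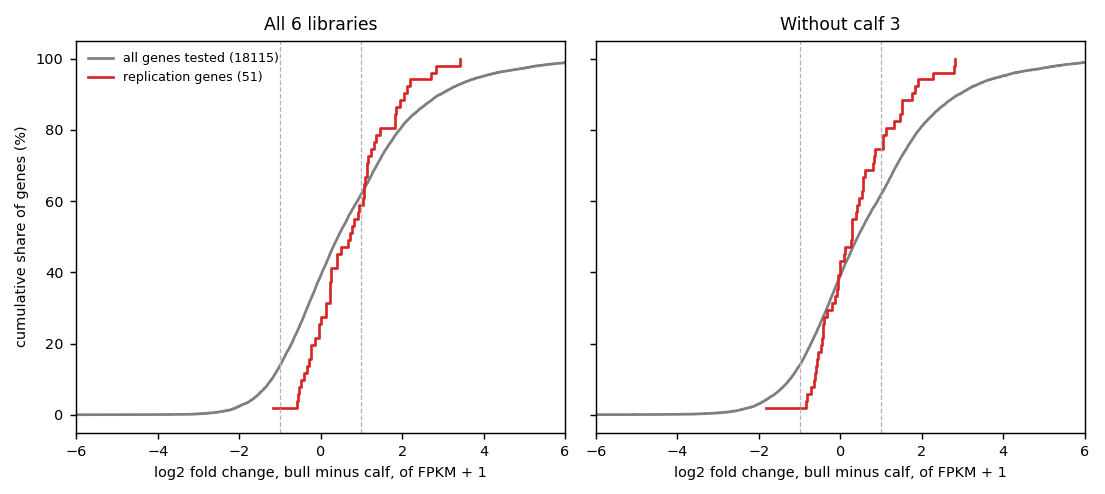
Cumulative share of genes (vertical axis, %) against the log2 fold change, bull minus calf, of FPKM + 1 (horizontal axis), for the 51 replication genes in red and the 18115 genes tested in grey, with all 6 libraries on the left and without calf 3 on the right, and dashed lines at 2-fold. The red line starts at ORC2 and has a shorter range than the grey one on both sides, with a median of 0.71 on the left and 0.28 on the right, and quantile normalization shifts these medians to -0.08 and -0.39.

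Most tested markers of spermatocytes and spermatids were called higher, and those of Sertoli cells lower without calf 3, whereas other lists were mixed or held no call. Over all genes tested, 35.7% were called higher and 9.61% lower with all libraries, and 37.9% and 13.6% without calf 3. Of 9 spermatocyte markers, 9 were called higher with all libraries and 8 without calf 3, and their summed level was 22.0, 27.3 and 3.16 FPKM in calves, with OVOL2 at 0 in calf 3, and between 329 and 396 FPKM in bulls. Of 7 round spermatid markers, the 6 tested were called higher in both fits, with sums of at most 2.26 FPKM in calves, where ACR, ACRV1 and TXNDC2 were at 0 in calf 3, and between 486 and 559 FPKM in bulls. All 7 markers of elongating spermatids were called higher in both fits, with sums under 5 FPKM in calves, where ODF1 and SMCP were at 0 in calf 3, and between 13841 and 15550 FPKM in bulls. For spermatogonia, 2 of 8 markers were called higher in each fit, and 1 was called lower with all libraries and 2 without calf 3. Their sums were 114, 148 and 285 FPKM in calves and between 150 and 155 FPKM in bulls. Most of the sum in calf 3 came from UCHL1, at 25.6, 30.0 and 201 FPKM in the 3 calves, and from ID4, at 6.15, 17.0 and 50.2 FPKM, whereas DMRT1 had 44.9, 68.9 and 0.0938 FPKM. Of the 9 Sertoli cell markers, CLU alone was called lower with all libraries and all 9 without calf 3, with sums between 382 and 401 FPKM in bulls. After quantile normalization of all libraries, 2 of the 9 were called lower. None of the 8 Leydig cell entries and none of the 5 endothelial markers was called in either fit. Among 5 peritubular myoid markers, 2 were called higher in each fit, and 1 was called lower without calf 3. Among the 5 tested markers of macrophages and lymphocytes, 1 was called higher in each fit, and 1 was called lower with all libraries and 3 without calf 3. The part of these shifts in the levels of the replication genes was not tested.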

How the data were processed

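The authors removed low-quality reads, discarded ribosomal reads with Bowtie2, mapped the rest with TopHat2 and used StringTie for assembly, and the tool behind the gene levels is not given in the sources used here. The deposited tables hold FPKM values of genes and transcripts per library and no counts, so the depth behind a value is unknown and no counting interval is given. FPKM sums over genes ran from 587066 in calf 3 to 1098715 in calf 2. The methods name a UMD assembly, but the positions of all 51 members, and of 99.7% of the 16298 symbols matched, overlapped the same symbol on the RefSeq annotation of an ARS-UCD assembly.

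Values were transformed to log2(FPKM + 1), which understates changes of low genes, and genes or transcripts with 1 FPKM in at least 3 libraries were fitted with limma 3.58.1 (R 4.3.3, empirical Bayes with trend) over the whole table. Calls needed an adjusted p below 0.05 and 2-fold. The procedure was tested on simulated data whose spread was taken from calf 1, calf 2 and the bulls. That test therefore did not cover the deviation of calf 3. Groups follow the labels, and each library is a separate animal. Figures used matplotlib 3.10.9. Values in every library were given for the member with the largest and the smallest fold change of each of 12 roles, for members whose call changed without calf 3, and for DBF4 and PRIM2. Among companion lists the 2 genes with the largest change were named, and among transcripts those of opposite sign within a gene with a call. ORC4, PCNA, RFC5, POLE2, PRIM1, GINS1, TOP2B and E2F1 were added after their values were seen. The members, lists and rules were chosen with earlier results of these data known. Alternatives covered scaling, pseudocount, filter, model, replicate block and each library left out.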

Additional observations from a re-analysis of the deposited data

How the results depend on the processing

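Scaling and calf 3 limited these results most. The counts given in this paragraph are of replication genes called higher or lower, 16 and 0 in the comparison of all libraries, and of their transcripts, 19 and 3. After quantile normalization there were 9 and 7 genes and 11 and 10 transcripts; without calf 3 and with quantile normalization, 6 and 12 genes and 9 and 18 transcripts. Scaling to a common sum over genes with a symbol went the other way, with 22 genes higher and 0 lower. Over all alternatives, 6 to 22 genes and 9 to 26 transcripts were called higher. Array weights, and median-of-ratios scaling without calf 3, each gave 1 gene and 6 transcripts lower. Of all 18115 genes tested, 2470 and 2665 were lower in these fits. With 1 FPKM required in all libraries, 10 transcripts were higher and 0 lower, where fewer transcripts were tested. Leaving out each library in turn gave 12 to 17 genes higher, 0 to 1 lower, 14 to 22 transcripts higher and 2 to 6 lower. In the same fits, 6034 to 6859 of all 18115 genes tested were higher and 1218 to 2466 lower. For transcripts, counts over the whole table are given above only for all libraries and without calf 3. The cause of these differences was not tested.

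Among the 33 genes recomputed under each alternative, the sign turned only for genes that were not called with all libraries. After quantile normalization the log2 fold change was -0.28 for CDC6, -0.51 for MCM7, -0.35 for RRM2, -0.54 for RRM2B and -0.33 for GINS1, and without calf 3 as well it was -0.30, -1.28, -0.79, -0.27 and -0.59, with RPA2 at -0.39. Scaling to a common sum gave 0.19 for CDT1, 0.023 for CDC7, 0.25 for RPA1 and 0.11 for PRIM1. Median-of-ratios scaling gave -0.072 for RRM2B and, without calf 3, -0.55 for MCM7, -0.26 for RRM2 and -0.13 for GINS1. Array weights gave -0.43 for MCM7, -0.15 for RRM2 and -0.052 for GINS1, and leaving antisense transcripts out gave -0.76 for GINS1. Over the libraries left out in turn, the values ran from -0.43 to 0.17 for CDT1, from -0.48 to 0.61 for MCM7, from -0.33 to 0.15 for RPA1, from -0.20 to 0.90 for RRM2, from -0.16 to 0.29 for RRM2B, from -0.60 to 0.50 for PRIM1 and from -0.067 to 0.45 for GINS1. The difference in the share of RRM2B ran from -17.6 to 10.4 percentage points. Of the other alternatives for single genes, 464 kept direction and call, 40 lost the call and 19 gained it.

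Calves and bulls share replicate numbers. Libraries with the same number deviated together with correlations of 0.0277, 0.0246 and 0.0341, each the highest of its bull, but below the 0.1 that would take the numbers as pairs. With the replicate block, 16 replication genes were called higher and 0 lower, and 6437 and 1691 of all genes, against 6474 and 1741. The alternatives that combine leaving out calf 3 with another scaling, and the one on antisense transcripts, were chosen after the data were seen. FPKM values without counts leave the precision of low levels unknown.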

Other observations

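Some values belong to single libraries. In bull 3, RFC4-202 had 22.7 FPKM against 10.1 and 10.9 in bull 1 and bull 2, and RFC4-203 had 3.22 against 9.12 and 11.9, while the gene RFC4 had 26.2 FPKM against 19.6 and 23.1. DBF4-201 had 9.92 FPKM in bull 3 against 4.77 and 3.25, and DBF4-202 had 38.2 against 42.8 and 48.4. ORC2-201 was listed at 0 in bull 3 and had 2.23 and 3.44 FPKM in the other two bulls, with 16.1, 16.3 and 0.310 FPKM in calves. Another ORC2 transcript, assembled from the reads, had 4.23, 4.65 and 6.46 FPKM in bulls and 11.8, 18.3 and 6.87 FPKM in calves. In these genes the split between transcripts differed among bulls more than the gene value did.

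Nearly all of the POLE4 level came from 2 transcripts that were assembled from the reads and have no Ensembl name. The longer had 18.0, 24.1 and 7.56 FPKM in calves and 12.7, 15.8 and 11.1 FPKM in bulls, and the shorter 7.41, 5.62 and 1.96 FPKM in calves and 2.15, 1.56 and 2.43 FPKM in bulls. The shorter was called lower without calf 3 (log2 fold change -1.30, limma adjusted p = 0.00317).

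The summed FPKM of the 51 replication genes was 600 and 632 in calf 1 and calf 2, 250.1 in calf 3, and 889, 924 and 854 in bulls, or 0.0581%, 0.0598%, 0.0451%, 0.125%, 0.132% and 0.129% of the sum over genes with a symbol.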
